A study of Homo sapiens with 4 samples.

Results

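CDX4, INKA1, KCNF1, TEK, KCNG3 and DST were followed through 4 passage groups of H9, a long-established line of human embryonic stem cells. They were chosen from their measured values, as genes whose array signal was higher (CDX4, INKA1, KCNF1) or lower (TEK, KCNG3, DST) at each step from P1 to P2, P2 to P3 and P3 to P4. These are 6 of the 19951 genes with a probe, and all 6 were detected on all 4 arrays, as were 10642 genes in all. P1 held cells at passages in the 40s, P2 in the 100s, P3 in the 200s and P4 in the 300s, with no treatment or genetic change named in the labels for any group. Total RNA of each group was hybridised to 1 Illumina bead array. There was no replicate of any group, so every difference below compares 2 arrays, is a description and carries no p-value. The labels do not say whether the groups descend from one another as a single culture or how many cultures gave each RNA.

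The 6 genes act in several separate processes. CDX4 encodes a caudal-type homeobox transcription factor, which in mouse and zebrafish embryos works upstream of the HOX genes of the posterior body and of early blood. INKA1 encodes an inhibitor of PAK4, a p21-activated kinase that acts downstream of CDC42 on the actin cytoskeleton. KCNF1 and KCNG3 encode electrically silent potassium channel subunits, which form no channel alone and alter Kv2 channels by joining them. TEK encodes TIE2, the receptor tyrosine kinase for angiopoietins, best known from endothelial cells. DST encodes dystonin, a giant plakin with isoforms that link actin, microtubules or keratin filaments to each other and to hemidesmosomes.

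The annotated promoters of the members differed in base composition. RefSeq (GRCh38.p14) windows of 300 bases, from 250 before to 50 after the start, are printed for 4 of them, in lower case from 5′ to 3′. The CDX4 (chrX:73446803-73447102, plus strand) and KCNF1 (chr2:10911684-10911983, plus strand) windows are shown because they share the palindromic letters TGACGTCA, the consensus of the cAMP response element, in capitals.
CDX4: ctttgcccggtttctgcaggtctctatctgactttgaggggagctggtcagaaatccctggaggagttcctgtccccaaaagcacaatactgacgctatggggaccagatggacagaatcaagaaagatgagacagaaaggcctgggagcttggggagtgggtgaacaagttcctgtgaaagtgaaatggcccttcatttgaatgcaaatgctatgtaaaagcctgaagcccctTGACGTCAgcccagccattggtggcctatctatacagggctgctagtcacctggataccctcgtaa
KCNF1: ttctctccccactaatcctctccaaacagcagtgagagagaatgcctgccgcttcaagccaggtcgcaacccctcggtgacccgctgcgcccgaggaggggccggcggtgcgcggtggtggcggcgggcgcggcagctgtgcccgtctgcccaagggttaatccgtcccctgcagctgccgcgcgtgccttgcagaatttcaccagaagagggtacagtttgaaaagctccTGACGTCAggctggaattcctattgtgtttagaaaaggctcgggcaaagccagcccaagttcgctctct
This motif begins at position -16 in CDX4 and -19 in KCNF1, counted from the annotated start. It was noticed on reading the windows and then searched for. Among 35116 RefSeq windows of this length, 1.85% hold it on either strand, and no window of the other members does. The TEK (chr9:27108975-27109274, plus strand) and KCNG3 (chr2:42493933-42494232, minus strand) windows are shown for their contrast in CpG dinucleotides, which are in capitals.
TEK: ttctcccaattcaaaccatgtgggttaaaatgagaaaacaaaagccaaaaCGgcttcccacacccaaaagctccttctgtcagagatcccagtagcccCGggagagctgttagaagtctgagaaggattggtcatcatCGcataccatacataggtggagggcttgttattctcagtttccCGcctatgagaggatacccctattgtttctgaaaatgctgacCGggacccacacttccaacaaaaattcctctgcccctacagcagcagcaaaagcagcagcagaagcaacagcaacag
KCNG3: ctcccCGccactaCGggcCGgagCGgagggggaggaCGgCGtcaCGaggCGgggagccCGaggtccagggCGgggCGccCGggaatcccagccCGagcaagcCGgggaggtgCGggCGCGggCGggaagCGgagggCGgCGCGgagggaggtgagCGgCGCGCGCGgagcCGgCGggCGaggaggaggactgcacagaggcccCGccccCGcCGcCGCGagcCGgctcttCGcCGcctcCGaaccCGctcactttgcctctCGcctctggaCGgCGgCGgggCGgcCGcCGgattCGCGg
TEK holds 5 CpG dinucleotides in its first window and KCNG3 holds 49, against a median of 14 over all windows. CDX4 has 4, KCNF1 has 22, INKA1 has 37 and the first of the DST windows has 45. Neither direction had a single promoter type. GGGCGG, the GC box, occurred on either strand in the INKA1, KCNG3 and first DST windows and in 45.0% of all windows. CCAAT, the CCAAT box, occurred on either strand in the CDX4 window, the first TEK window and the third of the DST windows, and in 34.6% of all windows. TATAAA, the TATA box, was in none of the member windows and in 11.5% of all windows. A match in these letters is a description of the window and not a binding site.

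Signals are linear intensity units, and a gene counted as detected on an array at 38.4 units or more, the 60th percentile of all values. Between 11322 and 11426 genes were detected per array. The number of arrays limits the precision. The cell label was checked on markers of undifferentiated pluripotent cells, and all 11 of those on the array were detected on all 4 arrays. POU5F1, the core pluripotency factor, read 4110, 4379, 5446 and 5467 from P1 to P4. The 11 had no common direction, with 6 higher and 5 lower in P4 than in P1 and a median log2 difference of 0.04. TERF1 read 6156.2, 2550.5, 4149.5 and 3817.0 from P1 to P4, the only one at least 2-fold lower in P2 than in P1. Some of the markers listed for other cell types were detected. Of 10 fibroblast or stroma markers 5 were detected, COL1A1, COL1A2, THY1, VIM and S100A4, and COL3A1, LUM, DCN, FBN1 and TWIST1 were not. Their summed signal was 7932 in P1, 9857 in P2, 10486 in P3 and 12120 for P4, higher at each step. THY1 made the largest part of it, at 3664.1 in P1 and 5796.5 in P4. THY1, COL1A1 and COL1A2 were higher at each step, whereas VIM peaked in P2 at 3198.5 and S100A4 was lowest in P2 at 690.8. The summed signal of 7 neural markers was 4722 in P1, 6005 in P2, 7425 in P3 and 7173 for P4, with PAX6 and SOX1 undetected. NES, at 2035.8 in P1 and 3243.3 in P4, and TUBB3, at 2364.7 and 3518.1, made the largest parts of it. STMN2 read 64.4, 137.3, 583.2 and 190.6 from P1 to P4, with its peak in P3. DCX was lower in P4 (196.6) than in P1 (231.9), and MAP2 was detected in P3 alone. The summed signal of 7 endoderm markers, 5 of them undetected, was 69, 268, 237 and 97 from P1 to P4, with AFP alone at 211.5 in P2. The sum over 10 blood markers, 7 of them undetected, was 176, 191, 223 and 178 from P1 to P4. These sums include the values of undetected probes. Whether these signals came from cells of other types or from the pluripotent cells themselves was not tested. The sums therefore do not measure an amount of other cells. The part of other cells in the members' values was not tested either. In bulk RNA, fewer cells expressing a gene and less of its RNA per cell cannot be told apart.

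The largest step was the first or the second in each of the 6 members. The P2 against P1 step led for CDX4, KCNF1 and KCNG3, and the P3 against P2 step for INKA1, TEK and DST. No member had its largest step between P3 and P4. The share of the whole P4 against P1 log2 difference made at the leading step ranged from 45.2% in INKA1 to 86.4% in KCNG3. The steps were unequal, and the smallest was 1.1-fold in CDX4 and KCNF1, 1.07-fold in KCNG3 and 1.06-fold in DST. It was 1.25-fold in INKA1 and 1.29-fold in TEK. The P2 array enters the first and the second step with opposite signs, and the P3 array the second and the third.

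**Figure D1:**
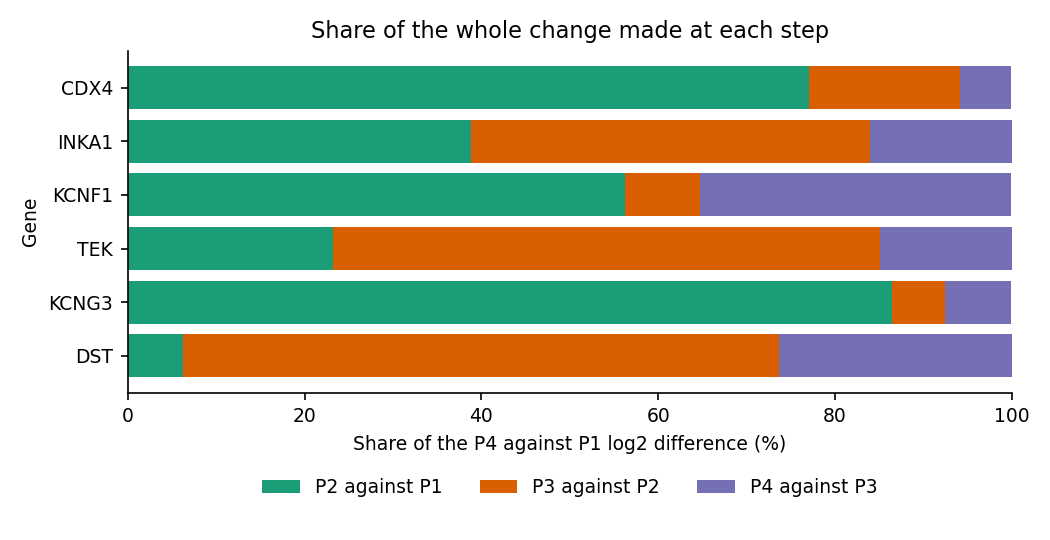
Share of the P4 against P1 log2 difference (x axis, percent) made at each of the 3 steps (colours), for each gene (y axis), with 1 array per group. The first step makes 77.1% of the difference in CDX4 and 86.4% in KCNG3, and the second 61.9% in TEK and 67.4% in DST.

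With no replicates, the spread over other genes gives the only scale for a step. For each member, genes found above the limit on all 4 arrays and with a mean within 0.5 log2 units of its own were taken, between 1563 and 1703 genes, and the central 90% of their differences was read off. That range holds true differences of those genes as well as noise. In every member, 1 of the 3 steps lay outside it, the leading one. The members were chosen from these same differences, so this describes their sizes and supports nothing further. The second step of INKA1, at a log2 difference of 0.92 against an upper bound of 0.91, and the first step of KCNF1, at 0.93 against 0.91, lay barely outside. The steps of CDX4 and KCNG3 from P2 onwards lay inside.

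**Figure D2:**
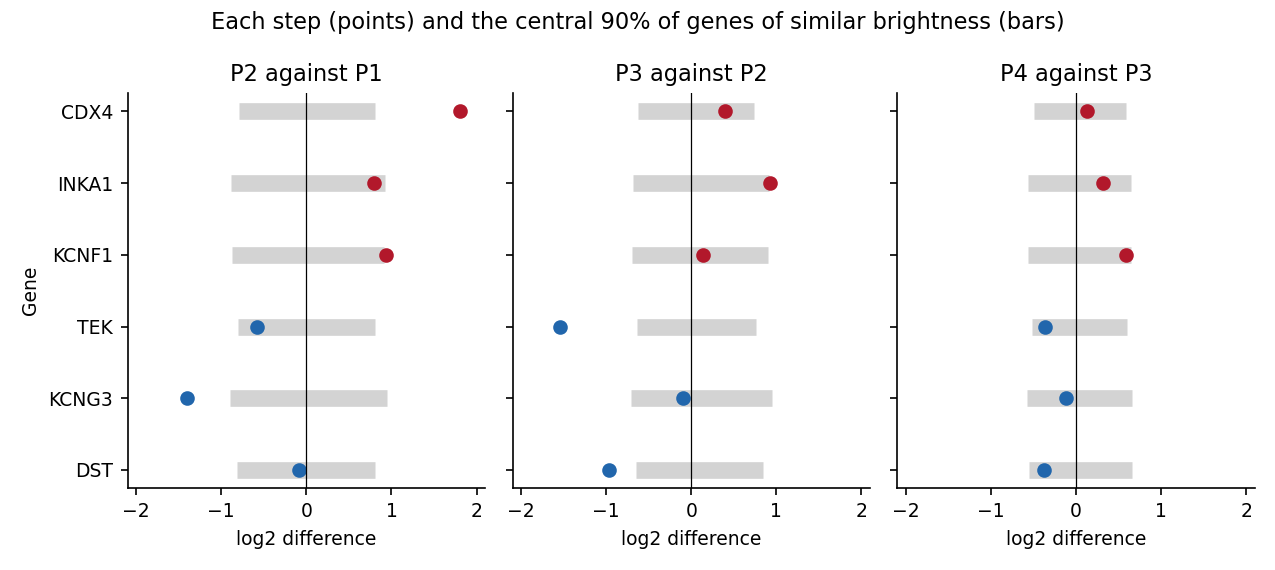
Log2 difference of each gene (points, red for higher and blue for lower in P4 than in P1) at each step, over the range that holds the central 90% of genes of similar brightness (grey bars). Points leave the bars in P2 against P1 for CDX4, KCNF1 and KCNG3 and in P3 against P2 for INKA1, TEK and DST, the log2 difference of TEK being -1.54 there.

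Members passing 2-fold at a single step were few. CDX4 was at least 2-fold higher in P2 than in P1, as were 2.18% of the 11804 genes detected on either array. KCNG3 was at least 2-fold lower in P2, with a share of 2.19% over those genes. TEK was at least 2-fold lower in P3 than in P2, with 1.05% of 11776 genes. No member was 2-fold higher in P3 than in P2 (2.09% of genes), and no member passed 2-fold between P3 and P4, where 1.34% of 11781 genes were higher and 0.764% lower. In P4 against P1, the difference that chose them, 3 members were at least 2-fold higher, beside 1.82% of 11823 genes, and 3 lower, beside 1.23%.

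**Figure D3:**
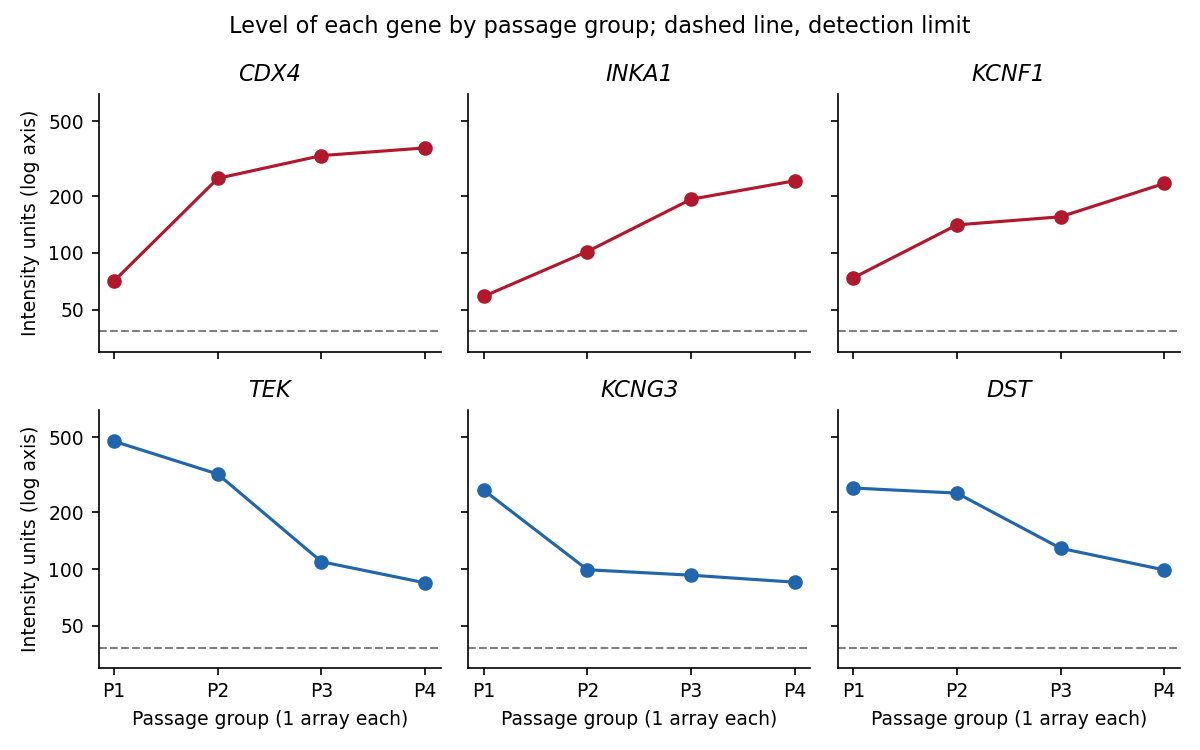
Intensity (y axis, log scale) of the probe used for each gene in the 4 passage groups (x axis, 1 array each), with the detection limit of 38.4 as a dashed line. CDX4 reads 71.2 in P1 and 360.3 in P4, TEK reads 475.8 and 84.6, and no point lies under the limit.

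CDX4, the transcription factor among the members, read 71.2, 248.6, 328.2 and 360.3 units from P1 to P4. P1 was the low array, and the other 3 lay close together. CDX4 was 3.49-fold higher in P2 than in P1, then 1.32-fold higher in P3 than in P2 and 1.1-fold higher in P4 than in P3. P4 stood 5.06-fold above P1, rank 6 from the highest of that difference among the genes detected on all 4 arrays. The single CDX4 probe leaves no second reading of the gene.

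No other caudal or ParaHox gene was detected. CDX1 and CDX2, the paralogues that pattern the posterior body and intestine, read between -5.4 and 8.5 units on the 4 arrays. Of 39 listed HOX genes, the usual targets of CDX factors, 29 had a probe named here. HOXA2 was the only one from the HOXA cluster, whose other genes were not read. Of the 29, only 4 were detected on any array, and none was 2-fold different at any step or in P4 against P1. Their median log2 difference in P2 against P1, where CDX4 stepped most, was -0.37, beside 0.03 over all detected genes. HOXC6 read 313.6 in P1 and 241.1 in P4, HOXB6 154.1 and 176.7, HOXC10 had a log2 difference of -0.12 and HOXC13 of 0.08. Of 17 genes of the primitive streak and posterior growth zone, CYP26A1, which degrades retinoic acid, was the only detected one. It read 268.7, 619.3, 190.7 and 260.2 from P1 to P4, high in P2 alone. TBXT, MIXL1 and the other mesoderm markers were not detected in P2, P3 or P4, and BMP4 was detected in P1 alone, at 48.8 units.

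INKA1, the kinase inhibitor, read 58.9, 101.8, 192.6 and 241.3 units from P1 to P4. Its rise was the most evenly spread of the 6, with 38.8%, 45.2% and 16.0% of the log2 difference at the 3 steps. It was 1.73-fold higher in P2 than in P1, 1.89-fold higher in P3 than in P2 and 4.09-fold higher in P4 than in P1. The P1 value is near the detection limit, and INKA1 has 1 probe.

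The detected PAK kinases did not differ by 2-fold. PAK4, the target of INKA1, read 1151, 1114, 1149 and 1211 from P1 to P4, a log2 difference of 0.07 over the whole span. PAK2 had 0.05 and PAK6, at 63.2 to 89.3 units between P1 and P4, 0.50. INKA2, the paralogue of INKA1, had 0.39 and read 274, 208, 367 and 359 from P1 to P4, so that P2 was its lowest array. Besides INKA1, no gene of the PAK and INKA list was 2-fold higher or lower. RAC2, a Rac GTPase gene of blood cells, was past 2-fold in P4 against P1. RAC2 read 227.5, 317.0, 546.2 and 539.7 from P1 to P4, with P3 and P4 level.

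KCNF1 and KCNG3, both silent potassium channel subunits, moved in opposite directions. KCNF1 read 73.8, 140.9, 155.5 and 233.5 units from P1 to P4, a first step of 1.91-fold, a near-level second step and a last of 1.5-fold. Its last step made 35.2% of the log2 difference, the highest share of that step among the members. From P1 to P4 KCNF1 stood 3.17-fold higher. KCNG3 read 262.2, 99.3, 92.9 and 85.3 from P1 to P4. P1 was high and the other 3 arrays were close together, 2.64-fold lower at the first step and 3.07-fold lower over the whole span.

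A second KCNG3 probe, annotated to another transcript, read 40.6, 13.6, -3.2 and 3.4 from P1 to P4. It passed the detection limit in P1 alone, so that only its direction, and no fold, can be set beside the first. With both probes averaged, the log2 difference of KCNG3 was -0.85, a mean that the floored values of the dim probe draw toward 0.

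Other silent subunits gave no common direction. Of 10 silent Kv genes, 5 were detected, KCNF1 and KCNG3 among them. KCNG1 read 829.5 in P1 and 607.1 in P4 (log2 difference of -0.45), and KCNS3 813.3 and 974.7 (0.26). KCNS1 read 159.4, 129.2, 102.1 and 273.4 through the groups, 1.42 log2 units higher in P4 than in P3. KCNB2, the only Kv2 subunit with a probe named here, was not detected on any array, at 10.8 to 24.0 units, so a Kv2 partner was not seen for either member. Of the 32 other voltage-gated subunits on the array, 12 were detected in P1 or P4 and none was 2-fold different between them. At the first step KCND1 and KCNH8 were at least 2-fold higher and KCND2 and KCNE5 at least 2-fold lower. KCNE5, an accessory subunit, read 361.3, 160.6, 333.8 and 408.6 from P1 to P4, and KCNH2, the ERG channel, 167.9, 104.3, 229.0 and 168.8. Both were lowest in P2 and had no trend through the groups.

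TEK, the angiopoietin receptor, read 475.8, 318.9, 109.5 and 84.6 units from P1 to P4. P1 and P2 were high and P3 and P4 low, with a 2.91-fold difference between P2 and P3. Over the whole span TEK was 5.62-fold lower, rank 2 from the lowest among the genes detected on all 4 arrays. The second TEK probe, for the same transcript, read 437.1, 238.4, 99.1 and 86.3 in the same order and was 5.07-fold lower in P4. Its first step was 1.83-fold, against 1.49-fold for the brighter probe, and its second 2.41-fold. The 2 probes differed by 0.15 in the P4 against P1 log2 difference. Over 1763 such pairs of probes of 1 transcript the median of this gap was 0.21, and TEK is the only member with 2 probes detected on all arrays.

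**Figure D4:**
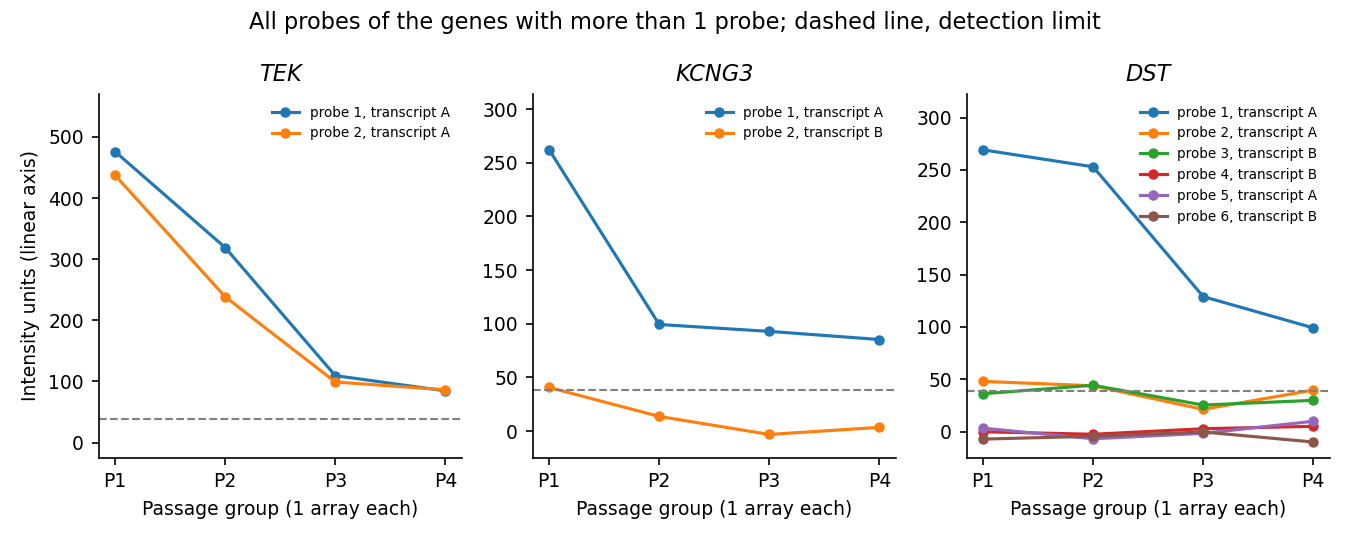
Intensity (y axis, linear scale) of every probe of TEK, KCNG3 and DST in the 4 passage groups (x axis, 1 array each), with the detection limit of 38.4 dashed and transcripts lettered within each gene. Both TEK probes fall together, whereas the second KCNG3 probe and the 5 further DST probes lie near or under the limit.

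The ligands of TEK were not detected. ANGPT1, ANGPT2 and ANGPT4 lay under the limit on all 4 arrays, the highest value being 28.6 units for ANGPT1 in P2. TIE1, the orphan relative that pairs with TIE2, was detected in P2 (60.9) and P3 (64.4) only. Of 12 endothelial markers, 7 were detected on no array, among them CDH5, VWF and ERG. The summed signal of these markers, with values under 0 taken as 0, was 379, 351, 485 and 463 from P1 to P4, and its course did not follow that of TEK. KDR, a vascular growth factor receptor also found in early progenitors, read 143 in P1 and 194 in P4. Among 12 detected signalling partners in P4 against P1, TEK included, CAV1 was the only one at least 2-fold higher. CAV1, the caveolar coat protein, read 164.3, 205.7, 162.8 and 364.6, high in P4 alone. NOS3, the endothelial nitric oxide synthase, read 47.2, 96.4, 168.1 and 90.2, with its peak in P3. PIK3R1, a regulatory subunit of phosphoinositide 3-kinase, read 178.6, 107.6, 277.4 and 230.1 and was 1.37 log2 units higher in P3 than in P2.

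DST, the plakin among the members, read 269.1, 252.9, 129.0 and 99.1 units from P1 to P4 on its brightest probe. P1 and P2 were level, and P3 was 1.96-fold lower than P2, just under 2-fold. DST was 1.30-fold lower in P4 than in P3 and 2.72-fold lower over the whole span. The other 5 DST probes give no like course. A dim probe of the same transcript read 48.0, 43.8, 21.3 and 39.7, with its lowest value in P3, and the brightest one of another transcript read 36.2, 44.3, 25.4 and 29.9. Both were lower in P3 than in P2, the leading step of DST, but lay under the limit in P3, so no fold is given. The other 3 stayed between -9.9 and 9.9 units. The DST result therefore rests on 1 probe, and with the detected probes averaged its log2 difference was -0.57.

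The other plakins did not differ by 2-fold at any step. DSP, the desmosomal plakin, had a log2 difference of -0.31 in P4 against P1, PLEC -0.27, PPL -0.03 and MACF1, the closest relative of DST, 0.25. Of the 5 detected plakins, DST included, 4 were lower and 1 higher in P4, with a median of -0.27. The 7 detected hemidesmosome and basement membrane genes leaned the other way, with 6 above 0 and a median of 0.33, and none was 2-fold different. LAMA5, a laminin chain, had 0.62, KRT8 0.57 and CD151, a tetraspanin of hemidesmosomes, 0.52. Of 16 detected microtubule and spectrin-type crosslinkers none was 2-fold different in P4 against P1, while CLIP2 read 549.9, 297.9, 736.2 and 621.5. MAPRE3, an end-binding protein, was undetected in P1 and read 76.9 in P2.

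Across the 13 lists built around the members, 80 genes other than the members were detected in P1 or P4. Of these, 2 were at least 2-fold different in P4 against P1 (RAC2 and CAV1), or 2.5%, near the background of 1.82% higher and 1.23% lower among 11823 genes. The median log2 difference of the 80 was 0.06. Of them, 5 moved in 1 direction at each step by any amount, beside 4.46% rising and 5.17% falling among the genes detected on all 4 arrays.

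Genes with the course most like that of a member lay on other chromosomes. The members' own chromosomes each held between 3.63% (chromosome X) and 6.3% (chromosome 2) of the genes detected on all 4 arrays. With such small shares, the lack of a match on the same chromosome is not a result about the members. Likeness was the root mean square distance between log2 profiles over the 4 arrays, each gene centred on its own mean. The closest to KCNG3 was DNAJC15, a mitochondrial co-chaperone, at 0.04, which read 566.7, 208.8, 209.5 and 192.3. ASTE1 (0.11) and DUSP13B (0.12) followed. PSMG3, a proteasome assembly chaperone, was the closest to DST at 0.06, with 241.7, 246.3, 127.9 and 98.9, ahead of FAM217B (0.08) and SNORD49A (0.13). WDR45, an autophagy gene, was the closest to KCNF1 at 0.10, with 76.6, 142.3, 177.8 and 220.0, ahead of MIR302C and ADGRE5 (both 0.12). It was not tested whether the MIR302C and small nucleolar RNA probes pick up the mature RNAs.

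INKA1 had 3 genes of chromosome 20 as its closest, the spindle factor TPX2 (0.14), the signal peptide peptidase HM13 (0.19) and the kinesin gene KIF3B (0.19). CDX4 and TEK had no near match, the closest being ATOSA at 0.31 and DST at 0.44. After ATOSA, HM13 (0.32) and HNMT, which inactivates histamine, (0.33) were the closest to CDX4. After DST came SNORD3C (0.44) and SNORD3D (0.47), U3 RNA copies that may share probe signal, for TEK. Each distance is over 4 arrays only. The profiles were not scaled, so genes with a large whole difference, such as CDX4 and TEK, have few near genes by construction.

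The nearest 2 detected genes on either side of each member in RefSeq order were read for comparison. Of these 24 neighbours, 1 moved in its member's direction at each step, ROCK2 beside KCNF1. Among genes detected on all 4 arrays, 4.46% were higher and 5.17% lower at each step by any amount. The count of neighbours is near that share and says nothing particular about them. Next to CDX4 on chromosome X, NAP1L2 had a log2 difference of -0.13 in P4 against P1 and UPRT 0.19. CHIC1 read 21.1, 39.6, 38.5 and 37.7, under the limit in P1 and P4, so no P4 against P1 difference is given for it. NAP1L6P read 121.6, 22.1, 36.2 and 263.7, undetected in P2 and P3. Next to INKA1 on chromosome 3, the ubiquitin ligase gene TRAIP read 73.1, 162.8, 131.2 and 141.4 and was 1.15 log2 units higher in P2 than in P1, the others having -0.08 (GMPPB), 0.19 (IP6K1) and 0.51 (CAMKV) in P4 against P1.

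The neighbours of KCNF1 on chromosome 2 had -0.12 (NOL10), 0.54 (PDIA6), -0.01 (SLC66A3) and 0.41 (ROCK2, a protein kinase gene). Those of KCNG3, on the same chromosome, had 0.20 (EML4), -0.09 (COX7A2L), -0.06 (MTA3) and 0.39 (HAAO). MOB3B, beside TEK on chromosome 9, read 609.2, 243.0, 357.2 and 347.7, low from P2 onwards and so earlier than TEK. PLAA had -0.43, IFT74 -0.21 and C9orf72 0.49. BEND6, beside DST on chromosome 6, read 106.1, 30.6, 46.5 and 55.2, under the limit in P2 where DST was still high. GCLC had -0.33, LRRC1 -0.40 and KIAA1586 -0.32.

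The members head a longer list. Of the 10642 genes detected on all 4 arrays, 475 (4.46%) were higher and 550 (5.17%) lower at each step by any amount, and 44 (0.413%) and 38 (0.357%) did so with at least 2-fold in all. By size of the P4 against P1 difference, CDX4, INKA1 and KCNF1 rank 1, 2 and 5 of the 44, with PCDHB3 and TSPY26P between INKA1 and KCNF1, and TEK, KCNG3 and DST rank 1, 2 and 3 of the 38. At the 2-fold edge, the matrix metalloproteinase inhibitor TIMP4 (2.01-fold, from 67.9 to 136.5) was just inside and DDIT4L (1.99-fold) just outside on the rising side. TSSK1B (2.01-fold, from 99.3 to 49.5) and FAM98B (1.99-fold) were their counterparts on the falling side. Among the 44 rising genes the largest step was the first in 17, the second in 17 and the third in 10. Among the 38 falling genes it was the first in 21, the second in 6 and the third in 11.

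The rising genes were unevenly spread over the chromosomes. CDX4 was 1 of 14 rising genes on chromosome X, which made up 31.8% of the 44, while chromosome X held 3.63% of the genes detected on all 4 arrays. A further 7 were on chromosome 20. On chromosome X, 3.63% of the 386 detected genes were rising with at least 2-fold in all, against 0.293% of the 10246 placed on other chromosomes. Of the 38 falling genes, 1 was on chromosome X and 3 were on chromosome 20. INKA1 was 1 of 2 rising genes on chromosome 3 and KCNF1 1 of 4 on chromosome 2. The split by chromosome was made after the values were seen and has no test, and genes of a chromosome are not independent of each other.

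**Figure D5:**
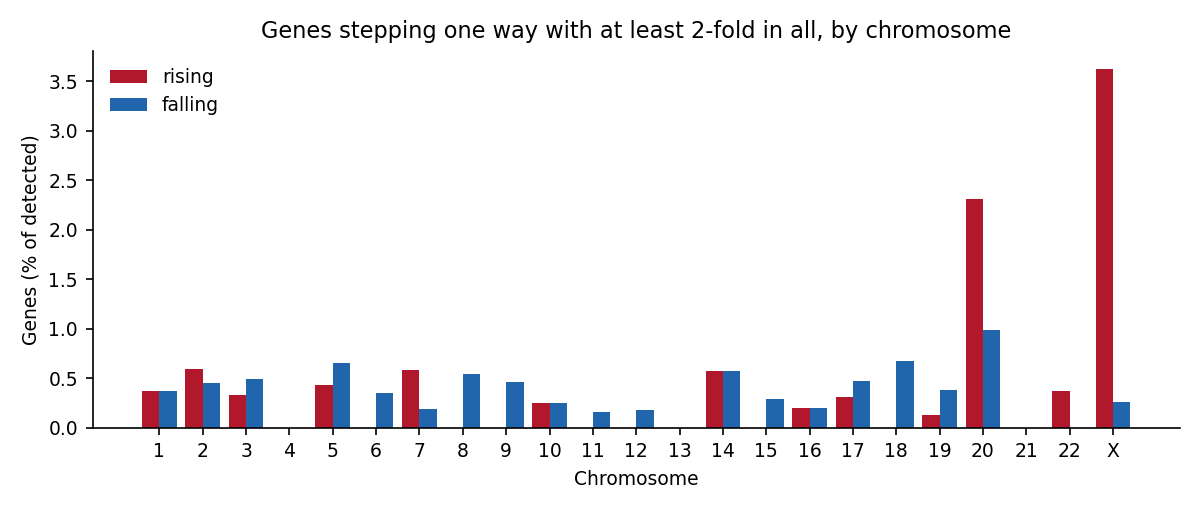
Share of the genes detected on all 4 arrays (y axis, percent) that were higher (red) or lower (blue) at each step with at least 2-fold in all, for each chromosome (x axis). Chromosome X, with CDX4, reaches 3.63% and chromosome 20 reaches 2.31% on the rising side.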

How the data were processed

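Biotin-labelled cRNA of 4 passage groups of the H9 line was measured on Illumina bead arrays, 1 per group. The deposited values are linear probe intensity values, 47323 per array. Between 25.2% and 25.4% of each array are below 0 and the medians lie between 17.4 and 17.5, so background subtraction and a between-array normalization before deposit are apparent from the values. The software is not stated.

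The values were quantile normalized, floored at the 60th percentile (38.4), which was also the detection limit, and taken to log2 (Python 3.11.15, numpy 2.4.6, pandas 2.3.3). A gene was its probe with the highest mean. The platform annotation gave 1 symbol for 30113 probes, several for 8 and none for 17202, and 30074 were matched to RefSeq by Entrez identifier. Y-linked and X-inactivation centre genes were left out. The calculation was checked on simulated arrays.

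The members and the 13 lists were chosen with earlier results of these data known. Named genes are the members with all their probes, list genes at least 2-fold different or with the largest differences, the 3 nearest profiles, 2 detected neighbours on either side and the genes at the 2-fold edge. Some list genes meeting this rule are given by count only, and the separate result of 1 list is not reported here. The promoter motifs, the range over genes of similar brightness and the split by chromosome were chosen after values or sequences were seen.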

Additional observations from a re-analysis of the deposited data

How the results depend on the processing

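No member's P4 against P1 difference turned its direction under any alternative run, and the leading step stayed in 34 of 36 values. Both exceptions came with the floor at the 75th percentile (178 units), where the third step led in INKA1 (74.7%) and KCNF1 (100%). There the log2 differences were 1.01 for CDX4, 0.44 for INKA1, 0.39 for KCNF1, -1.41 for TEK, -0.56 for KCNG3 and -0.59 for DST. The leading step of CDX4 then made 47.2% of its difference, against 77.1% as reported. With this floor 0 members were stepping genes, because each is floored on at least 1 array. With detected probes averaged, KCNG3 had -0.85 and DST -0.57. The second probe gave -0.08 for KCNG3 and the third 0.00 for DST, both held by the floor. The second DST probe gave -0.27, from 48.0 in P1 to 39.7 in P4, both above the limit, so the floor did not set that difference. The remaining 3 DST probes were detected nowhere and gave no value. With each step at least 1.1-fold, INKA1, KCNF1 and TEK (3 members) still stepped, and at 1.2-fold INKA1 and TEK (2).

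The 44 rising and 38 falling genes became 67 and 62 with the floor at the 50th percentile, 22 and 12 at the 75th, 24 and 13 with an offset of 50 and no floor, 23 and 15 with steps of at least 1.1-fold, and 5 and 5 at 1.2-fold. Genes at least 2-fold different numbered 516, 370, 248 and 361 in P2 against P1, P3 against P2, P4 against P3 and P4 against P1. They were 902, 666, 477 and 686 with the floor at the 50th percentile, 171, 135, 77 and 116 at the 75th, and 220, 208, 145 and 159 with the offset. The list genes at least 2-fold different in P4 against P1, 8 with the members, were 4 at the 75th percentile floor and 5 with probes averaged. The cause of these moves was not tested beyond what the settings do by construction. Values as deposited and median centring left all counts within 1.5 times. No paired analysis was possible because each group has 1 array and no result comes from a test. No replicate could be left out for the same reason.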

Other observations

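Rising genes of chromosome X besides CDX4 differed in the step that carried them. WDR45, SRPX, TRAPPC2, OTUD5 and MAOA, like CDX4, had their largest step between P1 and P2. FRMPD3, STARD8, PRAF2, BEX4, SYN1, ARAF and WWC3 had it between P2 and P3, and PDHA1, a subunit of pyruvate dehydrogenase, between P3 and P4. SYN1, which encodes the synaptic vesicle protein synapsin, read 241.8, 267.1, 514.7 and 515.6 from P1 to P4, low on the first 2 arrays and level on the last 2. Its neighbour ARAF, a RAF kinase gene, read 950.6, 1057.0, 1990.5 and 1994.9, the same course. MAOA, monoamine oxidase A, read 635.0, 888.4, 1147.4 and 1278.9. These 13 genes besides CDX4 were named after their values were seen. Over all 386 detected genes of chromosome X the median log2 difference was -0.01 in P2 against P1. It was 0.11 in P3 against P2 and -0.03 in P4 against P3. The other chromosomes together had medians of 0.03, -0.03 and 0.00. Any part of the chromosome in the steps of CDX4 was not tested.

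Among 17210 probes with no single gene symbol, 3506 were detected on all 4 arrays, of which 11 (0.314%) were rising and 27 (0.770%) falling with at least 2-fold in all. Falling genes included the small RNA genes SNORD12C (from 882.6 to 328.6), SCARNA14, SNORD91A and SNORD1A, named here after their values were seen. OCRL, a phosphatase gene, was the falling gene of chromosome X and read 1367.2, 715.8, 678.8 and 637.9.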
